A study of Mus musculus with 2 samples.

Results

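The galectin genes described here are Lgals1, Lgals3, Lgals8 and Lgals9, together with Lgals3bp, which encodes a secreted galectin ligand and no galectin. These 5 genes, out of 46095 in the deposited table, were taken by symbol, and they were selected on their counts in both libraries, which were known, so their differences are described and not tested. RNA was sequenced from leukaemia-initiating cells of a mouse acute myeloid leukaemia (AML), sorted from bone marrow as positive for Mac1 and c-Kit, with mice of strain C57BL/6 aged 8 weeks. One library is labelled P2x7-KO in its genotype field and carries a title ending in KD. The other is labelled wild type and carries a title ending in Scr. Each group is therefore 1 library, without a replicate, and neither the driver of the leukaemia nor the number of mice behind a library is stated by the labels. By the genotype fields the study set P2x7 knockout cells against wild type cells, P2x7 being the channel opened by extracellular ATP that P2rx7 encodes. The titles do not use these words.

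Galectins are small lectins that bind beta-galactoside sugars, above all N-acetyllactosamine (LacNAc) units on the glycans of surface and secreted glycoproteins. They are made in the cytosol, leave the cell without a signal peptide, and cross-link glycoproteins at the cell surface into lattices. Inside the cell some of them bind glycans exposed on torn endosomes and lysosomes and so mark damaged membranes. In blood cells galectin-3 is a long-used marker of macrophages, and galectin-9 is known in AML as a ligand of the receptor TIM-3.

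The library labelled P2x7-KO held 12435916 counts over 18983 detected genes, and the library labelled wild type held 12456212 counts over 18440 detected genes. Differences have no replicate check. Each is given as the ratio of the P2x7-KO library to the wild type library after TMM scaling, with an exact 95% interval that covers counting error only. A gene was called higher or lower when this ratio was at least 2-fold and its interval excluded equality. P2rx7 itself went against its label, with 543 counts in the P2x7-KO library and 229 in the wild type library, a ratio of 2.27 (1.94 to 2.66), so both libraries are named by their labels throughout. The sort genes were present in both, with Kit at 67.6 CPM in the P2x7-KO library and 46.0 CPM in the wild type library (CPM, counts scaled to 1000000 per library). Itgam, which encodes a chain of Mac1, was at 542.6 CPM in the P2x7-KO library and 186.9 CPM in the wild type library. Exons of Gm49368 on the same strand overlap 68.7% of the Itgam exon bases, and how reads there were counted is not known. An absent gene could reach up to 0.236 CPM in the P2x7-KO library and 0.247 CPM in the wild type library, taking 3 counts as the limit.

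Lgals3 was higher and Lgals1 lower in the P2x7-KO library, while Lgals8, Lgals9 and Lgals3bp stayed under 2-fold. All 5 genes passed the minimum of 20 counts over both libraries. The counts of 1 higher and 1 lower member stand beside 10.8% of 13363 genes counted that were called higher and 8.95% that were called lower. With only 5 members, picked with these values known, nothing is read from those shares. The median log2 ratio of the 5 was -0.42, and that of all genes counted was 0.00 when rounded. The plot of levels per kilobase shows each gene in both libraries.

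**Figure D1:**
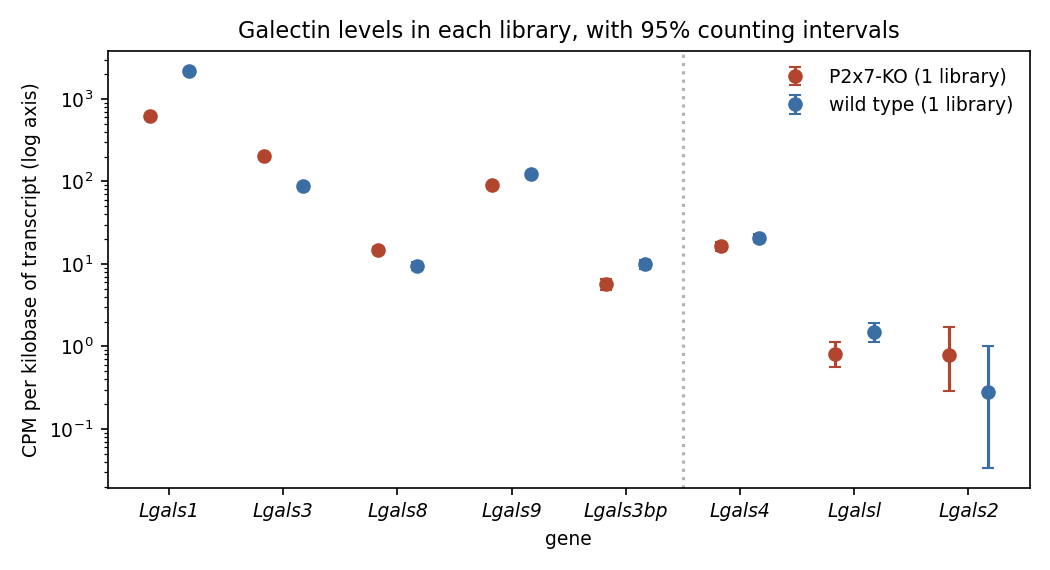
Level of each galectin gene in CPM per kilobase of transcript (log axis), with the P2x7-KO library left of the wild type library and bars for the 95% Poisson interval. The dotted line parts the 5 members from other galectins. Lgals1 stands at 617 in the P2x7-KO library and 2175 in the wild type library, and Lgals3 at 203 in the P2x7-KO library and 87.0 in the wild type library.

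Lgals1 encodes galectin-1, a galectin with a single carbohydrate-binding domain that acts as a dimer and is known for inducing death of activated T cells. In mm10 its GENCODE M21 position is chromosome 15, 78926725 to 78930465, plus strand. Lgals1 had 6290 counts in the P2x7-KO library and 21170 in the wild type library. On the CPM scale these are 494 (482 to 506) in the P2x7-KO library and 1740.3 (1717 to 1764) in the wild type library, intervals that lie far apart. The gene was thus 3.52-fold lower in the P2x7-KO library (3.43 to 3.62). It ranked 243rd by count among all genes in the P2x7-KO library and 40th in the wild type library. Of the libraries' counts, it took 0.0506% in the P2x7-KO library and 0.170% in the wild type library. Processed pseudogenes of Lgals1 took few reads: Lgals1-ps2 had 13 counts in the P2x7-KO library and 14 in the wild type library, and Lgals1-ps1 had 0 in both. None of the 751 stretches of 50 bases in the Lgals1 transcript occurs without mismatch in either pseudogene transcript.

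Lgals3 encodes galectin-3, the chimera-type galectin, whose single carbohydrate-binding domain follows a proline- and glycine-rich stretch that lets it form oligomers. Its position is chromosome 14, 47367751 to 47386160, plus strand. The P2x7-KO library held 3673 counts and the wild type library 1501. The levels were 288 CPM (279 to 298) in the P2x7-KO library and 123 CPM (117 to 129.8) in the wild type library, again without overlap of the intervals. Its ratio was 2.34-fold higher (2.20 to 2.48) in the P2x7-KO library.

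Lgals1 and Lgals3 therefore stood on opposite sides, and their relation inside a library needs no scaling between libraries. For each Lgals3 count there were 1.71 Lgals1 counts in the P2x7-KO library and 14.1 in the wild type library. The ratio between these values was 8.24 (exact interval 7.70 to 8.81). Of all counts on galectin genes, Lgals3bp left out, Lgals1 took 49.6% (Clopper-Pearson interval 48.8 to 50.5) in the P2x7-KO library and 82.2% (81.7 to 82.7) in the wild type library. Lgals3 took 28.99% (28.2 to 29.8) in the P2x7-KO library and 5.83% (5.55 to 6.12) in the wild type library. The galectin total was 12672 counts in the P2x7-KO library and 25754 in the wild type library, a gap smaller than that of Lgals1 alone.

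**Figure D2:**
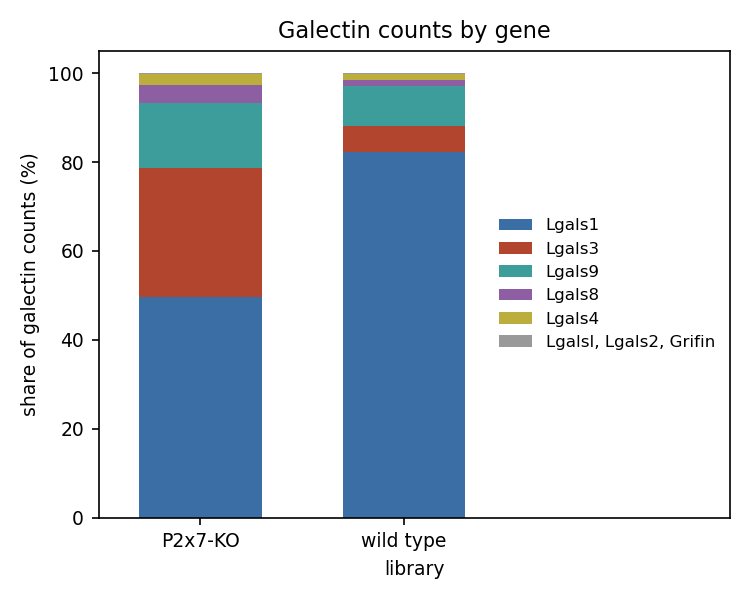
Share of galectin counts (%) taken by each galectin gene in the P2x7-KO library and in the wild type library, 1 library per bar. Lgals1 fills 49.6% of the P2x7-KO bar and 82.2% of the wild type bar, and Lgals3 fills 28.99% of the P2x7-KO bar and 5.83% of the wild type bar.

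Lgals8 and Lgals9 encode tandem-repeat galectins, each with a pair of carbohydrate-binding domains joined by a linker. Galectin-8 is known for marking vesicles broken by bacteria and recruiting autophagy receptors to them. Lgals8, at 12439415 to 12464944 of chromosome 13 (minus strand), had 537 counts in the P2x7-KO library and 327 in the wild type library. That is 42.2 CPM (38.7 to 45.9) in the P2x7-KO library and 26.9 CPM (24.0 to 29.96) in the wild type library, a ratio of 1.57 (1.36 to 1.81). The interval excludes equality but the value is under 2-fold. Exons of Heatr1 on the opposite strand overlap 4.20% of the Lgals8 exon bases, and reads there cannot be told apart without a known strand setting.

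Galectin-9 binds TIM-3, encoded by Havcr2, and CD44 on leukocytes. Its gene sits at 78962974 to 78984946 of chromosome 11, minus strand. It had 1842 counts in the P2x7-KO library and 2347 in the wild type library, or 145 CPM (138 to 151) in the P2x7-KO library and 193 CPM (185 to 201) in the wild type library. The value was 1.33-fold lower in the P2x7-KO library (1.25 to 1.42), the smallest difference of the 5 members. Havcr2 had 37 counts in the P2x7-KO library and 12 in the wild type library, 2.95-fold higher (1.502 to 6.20), at 2.91 CPM in the P2x7-KO library and 0.986 CPM in the wild type library.

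Lgals3bp encodes a secreted glycoprotein with a scavenger receptor cysteine-rich domain that binds galectin-1 and galectin-3. On chromosome 11 it spans 118392751 to 118402092 on the minus strand. With 169 counts in the P2x7-KO library and 281 in the wild type library it was the lowest of the 5 by count. Its level of 13.3 CPM (11.3 to 15.4) in the P2x7-KO library and 23.1 CPM (20.5 to 26.0) in the wild type library gave a value 1.74-fold lower (1.43 to 2.12). This interval reaches past 2-fold, so whether the gene lies beyond 2-fold could not be settled at this depth.

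Divided by transcript length, the order of the genes differed between the libraries. In the P2x7-KO library Lgals1 came first at 617 CPM per kilobase, followed by Lgals3 at 203, Lgals9 at 91.2, Lgals8 at 14.8 and Lgals3bp at 5.70. The wild type library had Lgals1 at 2175 CPM per kilobase, Lgals9 at 121.65, Lgals3 at 87.0, Lgals3bp at 9.91 and Lgals8 at 9.46. Lgals3 thus stood above Lgals9 in the P2x7-KO library and below it in the wild type library. The intervals of Lgals3bp (8.79 to 11.1) and Lgals8 (8.46 to 10.5) overlapped in the wild type library, and no other neighbouring pair of the 5 overlapped in either library.

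Pairwise, the ratio of each of 9 other pairs of members also differed between the libraries beyond counting error. The largest gap among these 9 was that of Lgals1 and Lgals8, with 11.7 Lgals1 counts per Lgals8 count in the P2x7-KO library and 64.7 in the wild type library, 5.53-fold (4.79 to 6.38). For Lgals3 against Lgals3bp there were 21.7 counts per count in the P2x7-KO library and 5.34 in the wild type library, a 4.07-fold gap (3.32 to 4.9998). The smallest gap was that of Lgals9 against Lgals3bp, at 10.9 counts per count in the P2x7-KO library and 8.35 in the wild type library, a 1.30-fold gap (1.06 to 1.60). Lgals8 and Lgals3, both above equality, differed by 1.49-fold (1.28 to 1.74) in favour of Lgals3. These gaps carry no adjustment for transcript length. With the length and GC adjustment given below, the log2 gap of Lgals1 against Lgals8 went from -2.47 to -1.70. That of Lgals3 against Lgals8 went from 0.58 to 1.15. Lgals3 against Lgals3bp was then the largest of the 9, at 2.18.

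Transcript length moved with the ratios across all genes, and the members differ in length. Genes counted with a transcript under 1000 bases had a median log2 ratio of -0.67, and those of 4000 bases or more had one of 0.44. Of the 1456 genes in the shortest class, 29.1% were called lower and 5.01% higher. Lgals1, at 800 bases, belongs to that class and lay below its median, with a log2 ratio of -1.82. Lgals3, at 1419 bases, belongs to a class with a median of -0.37 and lay above it, at 1.22. The part of library preparation or RNA quality in this trend was not tested.

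**Figure D3:**
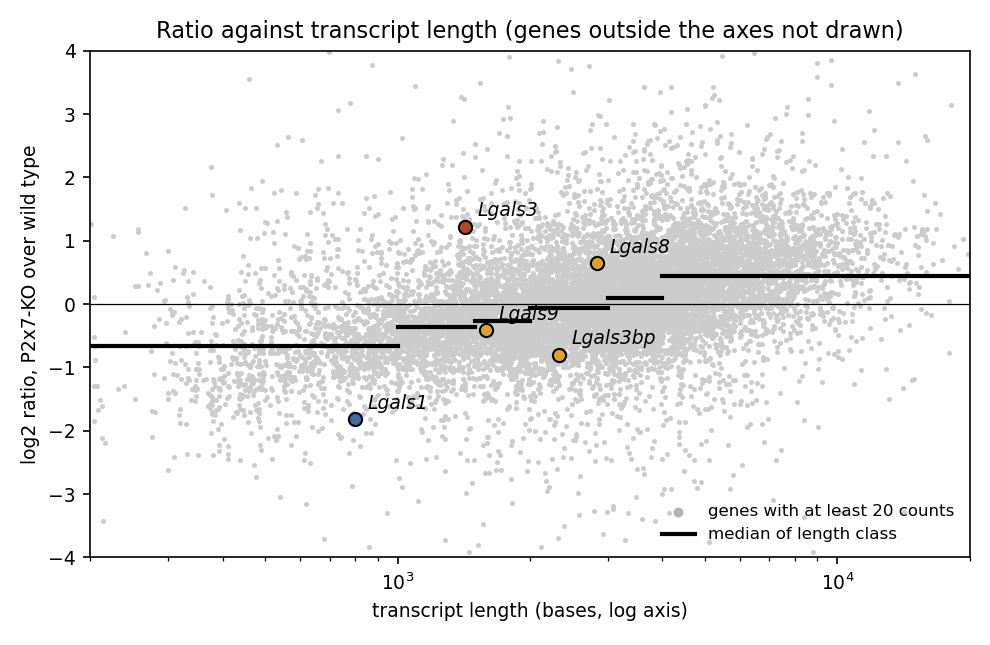
Log2 ratio of the P2x7-KO library over the wild type library against transcript length in bases (log axis) for genes with at least 20 counts in grey. Black bars give the median of each length class, between -0.67 under 1000 bases and 0.44 from 4000 bases. Lgals1 (-1.82) lies below the median of its class and Lgals3 (1.22) above the median of its own.

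After adjustment of the log2 ratios for length and GC content across 12381 genes, Lgals1 was at -1.19 (-1.23 to -1.15) and Lgals3 at 1.65 (1.57 to 1.74). Both remained past 2-fold, Lgals1 by less and Lgals3 by more than before. Adjustment brought Lgals9 to -0.14 (-0.23 to -0.05) and Lgals3bp to -0.53 (-0.81 to -0.25), and Lgals8 to 0.50 (0.30 to 0.71). No member changed sign. With that adjustment 7.87% of genes were called higher and 5.38% lower.

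**Figure D4:**
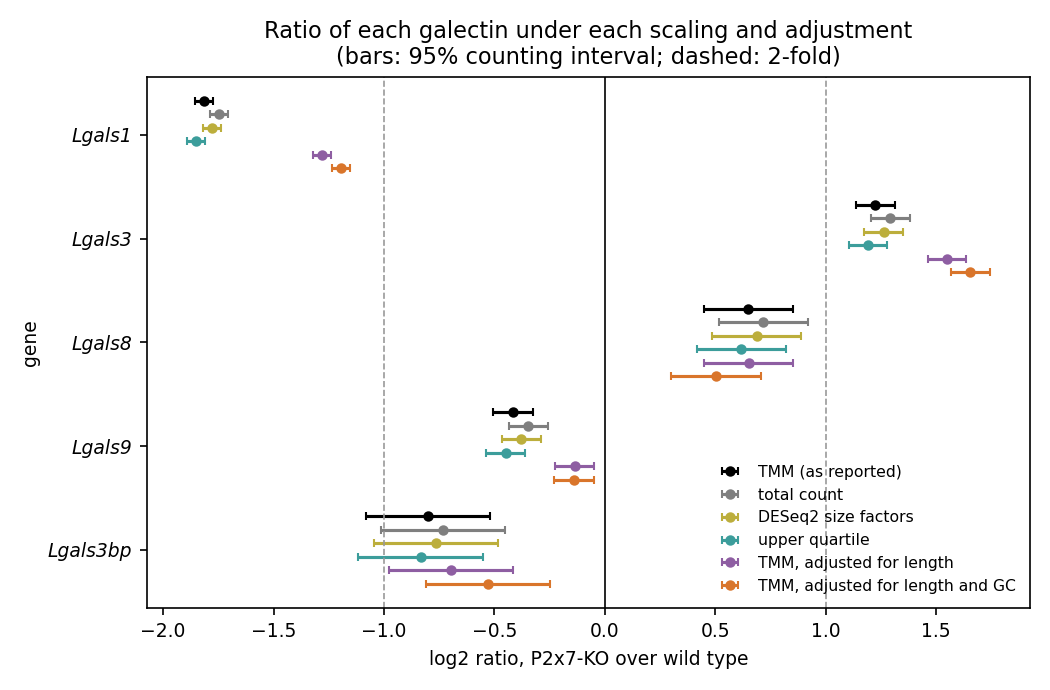
Log2 ratio of the P2x7-KO library over the wild type library for the 5 members under each scaling and adjustment, with bars for the 95% counting interval and dashed lines at 2-fold. The 4 scalings lie close together, while adjustment for length and GC moves Lgals1 to -1.19 and Lgals3 to 1.65.

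Other galectins were rarer. Lgals4, a tandem-repeat galectin best known in the gut, had 288 counts in the P2x7-KO library and 345 in the wild type library, 1.25-fold lower (1.07 to 1.47). Lgalsl, which encodes a galectin-like protein, had 35 counts in the P2x7-KO library and 61 in the wild type library, 1.82-fold lower (1.18 to 2.85), and it passed 2-fold once length and GC were adjusted for, at a log2 value of -1.21. Lgals2 had 6 counts in the P2x7-KO library and 2 in the wild type library, and Grifin, a lens protein gene, had 1 in each. Lgals7 and Lgals12 had 0 counts in both, which allows up to 0.0237% of galectin counts in the P2x7-KO library and 0.0116% in the wild type library. Of the 2 other galectins counted, 0 were called higher and 0 lower. Lgals6 has no row.

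RefSeq promoter windows (GRCm38.p6) were matched by symbol for 4 of the 5 members, Lgals1 being the one without an entry. They are shown because Lgals3 and Lgals8 stood above equality and Lgals9 and Lgals3bp below it. Each runs 5′ to 3′ on the gene's strand over 250 bases before the start and 30 bases from it. Capitals mark any match, on either strand, to 5 motifs chosen after the values were seen.
Lgals3: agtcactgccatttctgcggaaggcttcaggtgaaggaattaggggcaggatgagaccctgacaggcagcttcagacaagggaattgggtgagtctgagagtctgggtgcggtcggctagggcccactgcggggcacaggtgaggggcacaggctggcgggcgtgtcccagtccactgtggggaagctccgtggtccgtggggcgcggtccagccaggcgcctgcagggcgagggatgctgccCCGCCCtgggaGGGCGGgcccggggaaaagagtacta
Lgals8: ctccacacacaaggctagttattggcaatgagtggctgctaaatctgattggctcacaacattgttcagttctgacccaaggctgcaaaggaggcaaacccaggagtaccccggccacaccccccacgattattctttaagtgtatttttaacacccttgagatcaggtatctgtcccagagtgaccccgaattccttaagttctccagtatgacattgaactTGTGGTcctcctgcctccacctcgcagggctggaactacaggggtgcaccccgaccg
Lgals9: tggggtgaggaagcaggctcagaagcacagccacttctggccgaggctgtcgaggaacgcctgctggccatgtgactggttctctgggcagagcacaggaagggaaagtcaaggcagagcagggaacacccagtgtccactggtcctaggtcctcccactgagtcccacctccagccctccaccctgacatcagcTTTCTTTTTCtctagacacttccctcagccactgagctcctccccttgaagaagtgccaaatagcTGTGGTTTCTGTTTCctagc
Lgals3bp: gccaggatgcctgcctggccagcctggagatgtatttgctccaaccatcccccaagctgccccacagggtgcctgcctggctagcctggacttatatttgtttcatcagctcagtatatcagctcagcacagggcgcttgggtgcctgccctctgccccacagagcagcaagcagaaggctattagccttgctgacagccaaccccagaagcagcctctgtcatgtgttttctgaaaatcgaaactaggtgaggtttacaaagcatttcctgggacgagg

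These windows lie at chr14:47373610-47373889 (plus strand), chr13:12461709-12461988, chr11:78984895-78985174 and chr11:118401930-118402209 (minus strand for the last 3). The windows of Lgals3 and Lgals8 lie inside the gene spans given above, so the start used there is not the outermost start of the gene. The Lgals3 window, with 66.1% GC, held GGGCGG, the GC box bound by SP1, once on each strand around the start, a motif found in 34.7% of 32851 such windows. Lgals9 held GAAA, any 2 bases and GAAA, the core of the interferon-stimulated response element, on the strand opposite the gene at bases -55 to -46 and 16 to 25, a motif in 3.28% of windows. The second of these overlaps by 1 base a match to TGTGGT, the site of RUNX factors, which is in 15.6% of windows and also stands in Lgals8 at -27 to -22. TGANTCA, the AP-1 site (7.46% of windows), and TATAAA, the TATA box (13.1%), matched in none of the 4, and Lgals3bp matched none of the 5 motifs. A match describes letters and no binding.

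Galectins act through the glycoproteins they bind, and of 25 counter-receptor genes counted 18 stood above equality and 7 below it in the library labelled P2x7-KO, beside 6714 above and 6649 below of all genes counted. The list has 30 genes, and of the 25 counted there were 7 called higher (28%), 1 lower (4%) and 17 neither, against 10.8% higher and 8.95% lower over all genes. Their median log2 value was 0.59. Lgals3bp is itself on this list. Fn1, which encodes fibronectin, a ligand of galectin-1 and galectin-3, was at 1128 CPM in the P2x7-KO library and 189.7 CPM in the wild type library, 5.95-fold higher (5.69 to 6.22). Cd40 had 20 counts in the P2x7-KO library and 0 in the wild type library. It was 6.37-fold higher if 3 counts are put in the wild type library, and its interval reached down to 4.72. With Cd40 at its value against 3 counts the list median was 0.59 too. Nrp1, the neuropilin gene whose product binds galectin-1, was 3.25-fold higher (2.52 to 4.24) and the adhesion molecule gene Alcam 3.44-fold higher (2.28 to 5.34). Pecam1, an endothelial and leukocyte adhesion gene, was 2.05-fold lower (1.94 to 2.18), a call that ended with total count and DESeq2 scaling. Under 2-fold, and named after their values were seen, were the integrin gene Itgal at a ratio of 1.97, Lamp2, a lysosomal glycoprotein gene, at 1.93, and Ptprc, which encodes the galectin-1 receptor CD45, at 1.93. Total count scaling put Itgal, Lamp2 and Ptprc among the genes called higher, and DESeq2 scaling put Itgal there. Cd44 stood at 1.55 and Lamp1 at 1.21. On the other side, and also under 2-fold, Slc3a2 was 1.77-fold lower, Slc1a5 1.72-fold lower and Bsg 1.61-fold lower. With length and GC adjusted for, 6 genes of the list were called higher and 1 lower, beside 7.87% higher and 5.38% lower over all genes. The list median was then 0.40, and the call of Tgfbr2 ended. Adjusted log2 ratios were 0.74 for Itgal, 0.50 for Lamp2, 0.40 for Ptprc, 0.08 for Cd44 and 0.42 for Lamp1. Those of Slc3a2, Slc1a5 and Bsg were -0.72, -0.56 and -0.20.

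The next list is mixed. It holds enzymes that build LacNAc units, but also mannosidase genes, sugar carrier genes and B3gnt5, which acts on glycolipids. The 4 genes called higher are all of these latter kinds. Of its 22 genes, 20 were counted, and 4 of them (20%) were called higher, 1 (5%) lower and 15 neither. Over all genes counted the shares were 10.8% higher and 8.95% lower. The list median was a log2 ratio of 0.27, or 0.16 with length and GC adjusted for. The Golgi mannosidase gene Man2a1 was at 215.7 CPM in the P2x7-KO library and 72.3 CPM in the wild type library, 2.99-fold higher (2.77 to 3.22), and its relative Man2a2 was 2.18-fold higher (2.09 to 2.28). Slc35a3, a gene for the carrier of UDP-N-acetylglucosamine into the Golgi, was 2.90-fold higher (2.56 to 3.30). B3gnt5, which extends glycolipids, had 59 counts in the P2x7-KO library and 18 in the wild type library, 3.13-fold higher (1.82 to 5.64). B4galt4, a galactosyltransferase gene, was 2.27-fold lower (1.85 to 2.80). Mgat5, known for the branching that galectin-3 lattices depend on and named after its value was seen, stood at 194.6 CPM in the P2x7-KO library and 185 CPM in the wild type library, a ratio of 1.05. With length and GC adjusted for, 1 gene of the list was called higher, B3gnt5, and 1 lower, B4galt4, beside 7.87% higher and 5.38% lower over all genes.

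Genes listed under O-glycan cores and capping sugars had calls on both sides. The list is mixed and not confined to O-glycans. It also holds St3gal5, a ganglioside gene, Gcnt2, a branching enzyme gene, St6gal1, a capping enzyme gene, and Fut8, a core fucose gene. Both genes called lower, St6gal1 and Fut8, are among these. Of 20, 19 were counted, with 8 called higher (42.1%), 2 lower (10.5%) and 9 neither, beside 10.8% higher and 8.95% lower of all genes counted. The median log2 ratio of the list was 0.49, or 0.25 with length and GC adjusted for. Galnt7, which adds N-acetylgalactosamine to peptides, had 1442 counts in the P2x7-KO library and 241 in the wild type library, 5.72-fold higher (4.98 to 6.58). Gcnt2, a branching enzyme gene, was 4.65-fold higher (3.28 to 6.75), St3gal5, which makes the ganglioside GM3, was 4.43-fold higher (3.49 to 5.69), and St3gal1, which caps O-glycan cores with sialic acid, was 2.36-fold higher (2.03 to 2.76). St6gal1 encodes the sialyltransferase whose sialic acid linkage is known to block galectin-1 binding. It had 22 counts in the P2x7-KO library and 106 in the wild type library, 5.04-fold lower (3.16 to 8.39). Fut8, which adds core fucose, was 2.04-fold lower (1.90 to 2.20), a call that total count and DESeq2 scaling ended. Once adjusted for length and GC, 5 genes were called higher and 2 lower, against 7.87% higher and 5.38% lower over all genes so adjusted. The higher calls of St3gal1, C1galt1 and Fut4 ended, with St3gal1 at a log2 ratio of 0.91. The 2 called lower were St6gal1 at a log2 ratio of -2.59 and Fut8 at -1.33.

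**Figure D5:**
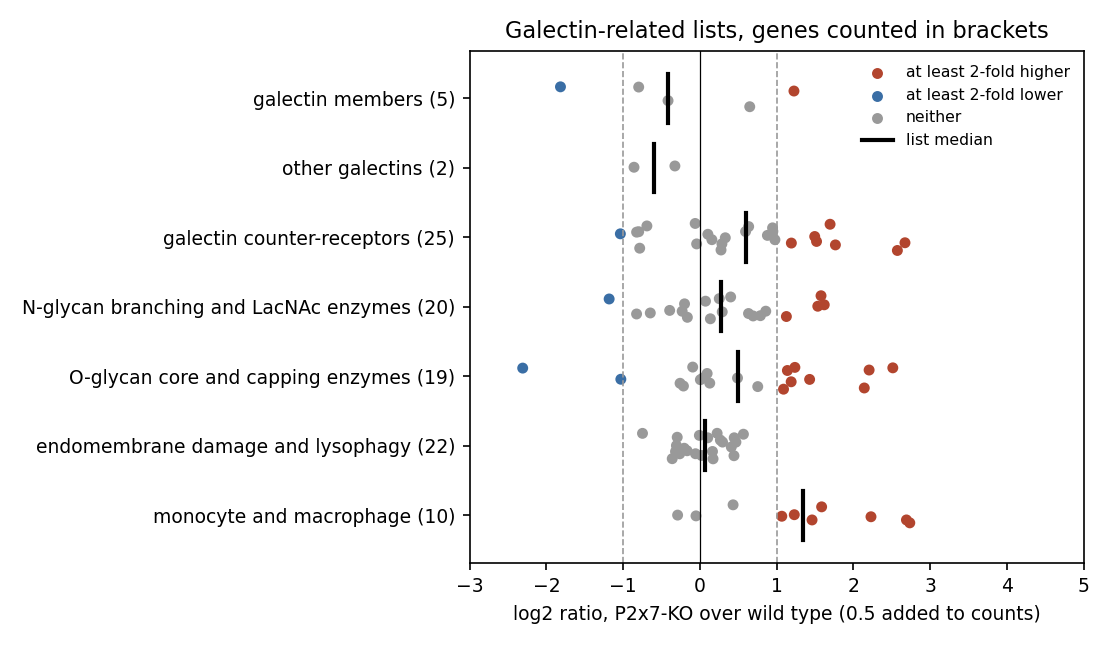
Log2 ratio of the P2x7-KO library over the wild type library for each counted gene of the galectin-related lists and of the monocyte and macrophage markers, 1 point per gene, with a black bar for each list median and dashed lines at 2-fold. Cd40 is drawn at its value against 3 counts in the wild type library. The counter-receptors have a median of 0.59, the O-glycan and capping list of 0.49 and the monocyte and macrophage markers of 1.34. These medians carry no adjustment for length and GC.

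Most monocyte and macrophage markers lay on the side of Lgals3. Of 10, 7 were called higher and 0 lower, beside 10.8% higher and 8.95% lower of all genes counted. The 3 not called were Adgre1 at a ratio of 1.35, Ly6c2 at 0.965 and Cd68 at 0.817. The list had a summed level of 4215 CPM in the P2x7-KO library and 2296 CPM in the wild type library, with none of its genes at 0. In bulk RNA fewer cells of a type and less RNA per cell cannot be told apart. Mast cell and basophil markers summed to 111.5 CPM in the P2x7-KO library and 520.8 CPM in the wild type library, with 2 of 5 counted called lower and Fcer1a at 0 in both. Most of the gap was Cpa3, at 22.0 CPM in the P2x7-KO library and 333.6 CPM in the wild type library, and Hdc was the other gene called. All 5 lay below equality, on the side of Lgals1. Gata2 (ratio 0.502), Mcpt8 (0.70) and Ms4a2 (0.81, interval 0.33 to 1.96) were not called. Among stromal markers, Col1a1 had 2 counts in the P2x7-KO library and 5 in the wild type library and Col1a2 had 1 in the P2x7-KO library and 0 in the wild type library. Of the summed stromal level of 56.6 CPM in the P2x7-KO library and 91.9 CPM in the wild type library, Pdgfrb made up 54.4 CPM in the P2x7-KO library and 90.8 CPM in the wild type library, and of 2 stromal genes counted 1, Cxcl12, was called higher. Of 10 neutrophil markers 1 was higher and 2 lower, at 3037 CPM in the P2x7-KO library and 3478 CPM in the wild type library, and 3 were higher and 1 lower with length and GC adjusted for. The part of monocytic, mast cell and neutrophil RNA in the galectin values was not tested.

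The sums of the remaining marker lists were low or level, while some single genes differed widely. The calls below stand beside 10.8% higher and 8.95% lower of all genes counted. The 8 genes of immature myeloid leukaemia cells summed to 5244 CPM in the P2x7-KO library and 5270 CPM in the wild type library, with Itgam called higher. Dendritic markers summed to 919 CPM in the P2x7-KO library and 829 CPM in the wild type library, with 2 of 4 counted higher and with H2-Aa and Xcr1 at 0 in both. Most of that sum was Irf8 (520 CPM in the P2x7-KO library and 452 CPM in the wild type library) and Flt3 (374 and 368 CPM), neither of them called. B lymphoid markers summed to 89.7 CPM in the P2x7-KO library and 130.1 CPM in the wild type library, with 1 of 3 counted higher and 1 lower. T and NK markers had 11.2 CPM in the P2x7-KO library and 34.9 CPM in the wild type library, with 2 of 2 counted lower. The eosinophil sum was 64.6 CPM in the P2x7-KO library and 75.6 CPM in the wild type library, with 0 of 2 called. Erythroid markers came to 92.0 CPM in the P2x7-KO library and 76.1 CPM in the wild type library, with 2 of 3 higher. Tfrc, not called, made up 83.8 CPM in the P2x7-KO library and 75.2 CPM in the wild type library. The 2 called were Hbb-bs, with 58 counts in the P2x7-KO library and 1 in the wild type library, and Hba-a1, with 41 and 2. Megakaryocyte markers came to 16.7 CPM in the P2x7-KO library and 41.4 CPM in the wild type library, with 1 of 2 higher and 1 lower.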

How the data were processed

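The authors deposited raw counts per gene for 2 libraries in 1 table of 46095 genes. The submitters' processing notes name HISAT2 2.0.4 and mm10. The counting program, annotation, strand setting and handling of multiple matches were not given in the sources used here, and unassigned reads have no row.

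The members and lists were chosen with earlier results of these data known. Counts were scaled with TMM (edgeR 4.0.16, R 4.3.3). A test needs replicates, so none was run and there are no p-values. Ratios carry exact 95% intervals from the Clopper-Pearson share of a gene's counts in the P2x7-KO library, CPM values carry exact Poisson intervals, and ratios between 2 genes carry the exact conditional interval of the odds ratio (scipy 1.17.1). Reads are not independent molecules, so intervals and limits cover counting error only. A call needs a ratio of at least 2-fold with the interval excluding equality, among the 13363 genes whose summed count was 20 or more. List medians add 0.5 to each count.

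Transcript length and GC content are those of the longest coding transcript in GENCODE M21, found for 92.7% of genes counted. The adjustment subtracts a robust fit of the log2 ratio on cubic splines of each (5 degrees of freedom, statsmodels 0.14.6). Alternatives were total count, DESeq2 1.42.0 and upper quartile scaling, thinning, removal of ribosomal protein and mitochondrial genes, other count minimums (10, 50, none) and a 1.5-fold rule. Named beyond the members are the other galectins, P2rx7, Kit, Itgam, up to 4 called genes per list and direction by the interval bound nearer equality, and genes said to be named later. Some marker genes were also named after their values were seen.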

Additional observations from a re-analysis of the deposited data

How the results depend on the processing

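No paired analysis was possible because each group holds 1 library, and no library could be left out. Of 210 recomputed values, 177 stayed inside the counting interval of the reported ratio or, for counts of genes, within 1.5 times the reported count. The other 33 did not, and 0 called ratios turned sign. Total count scaling put the log2 ratio of Lgals1 at -1.75. It left 0 counter-receptors and 1 gene of the O-glycan and capping list called lower, and DESeq2 scaling gave the same 0 and 1. Adjustment for length put Lgals1 at -1.28, Lgals3 at 1.55, Lgals9 at -0.14, P2rx7 at 0.82, Kit at 0.16 and Itgam at 1.21. With it 741 genes were called lower, and 5 genes of the O-glycan and capping list higher. Adjustment for length and GC put Lgals1 at -1.19, Lgals3 at 1.65, Lgals9 at -0.14, P2rx7 at 0.86, Kit at 0.15 and Itgam at 1.21. P2rx7 was then under 2-fold. The same adjustment left 666 genes called lower, 1 other galectin lower and 1 lysophagy gene higher. It left 1 gene of the N-glycan and LacNAc list higher, and 5 of the O-glycan and capping list. Under a 1.5-fold rule 2825 genes were higher and 2521 lower, with 2 members higher (Lgals3 and Lgals8) and 2 lower (Lgals1 and Lgals3bp). That rule put 1 other galectin lower, 12 counter-receptors higher and 5 lower, and 8 genes of the N-glycan and LacNAc list higher and 3 lower. The scalings and the 1.5-fold rule act by a shared shift or a lower threshold, and the cause of the length trend was not tested. The calls of Lgals1 and Lgals3 held under every alternative run, some of which could not have ended them. Among the members depth limits Lgals3bp most, and among the other galectins Lgalsl, Lgals2, Grifin, Lgals7 and Lgals12 rest on still fewer counts.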

Other observations

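Genes that act on damaged endosomes and lysosomes, where galectin-3, galectin-8 and galectin-9 are known to gather, had a median near equality. Of 23 such genes, 22 were counted, with 0 called higher and 0 lower and a median log2 ratio of 0.06, beside 10.8% higher and 8.95% lower of all genes counted. Tax1bp1, an autophagy receptor gene, was at 429.8 CPM in the library labelled P2x7-KO and 447 CPM in the library labelled wild type. Sqstm1, which encodes the receptor p62, was at 200.3 CPM in the P2x7-KO library and 240.5 CPM in the wild type library. Trim16, whose product binds galectin-3 at damaged lysosomes, was at 11.8 CPM in the P2x7-KO library and 14.5 CPM in the wild type library. These 3 genes were picked for their known roles after their values were seen, and all lay below equality. Of the 22 counted, 12 lay above equality and 10 below. Ratios ran from 0.59 (0.33 to 1.05) for Optn to 1.48 (1.35 to 1.63) for Tbk1.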
